A study of Mus musculus with 2 samples.

Results

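Vitamin C (ascorbate) reaches a very high concentration in the adrenal gland, and 7 genes that take it up, make it or use it were followed in the gland of newborn mice. Slc23a1 and Slc23a2 encode sodium-driven ascorbate transporters, Akr1a1, Rgn and Gulo encode the last 3 enzymes of ascorbate synthesis, and Cyb561 and Pam encode proteins of secretory vesicles that use it. They were picked by gene symbol from 55536 annotated genes by a rule that uses no measured value, though with earlier results of these data known, and all 7 were found. The RNA came from adrenal glands of B6CASTF1/J males aged 4 days, F1 hybrids of C57BL/6J with CAST/EiJ, a strain derived from wild mice. The study held 1 group with 2 libraries, labelled as biological replicates, and no second condition, so levels could be described and the libraries compared, and no test between conditions exists. Each library started from 300 ng of total RNA, reduced in ribosomal RNA and spiked with ERCC transcripts, and a directional kit was used. The sample characteristics number the glands as different males, a description common to both repeats one of those numbers, and both carry one donor label. The labels thus do not settle whether the libraries come from separate animals. They were treated as separate samples, since their biosample labels differ, and the spread between them may be technical.

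Most mammals, mice included, make their own ascorbate, chiefly in the liver, from glucuronate. Akr1a1 reduces glucuronate to gulonate, Rgn closes gulonate into its lactone, and Gulo oxidises the lactone in the step that humans lack. Other organs take ascorbate from blood through the transporters, and chromaffin cells of the adrenal medulla pass its electrons across the vesicle membrane through cytochrome b561 to the copper enzymes inside.

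Annotated genes received 30292851 expected counts in replicate 2, against 32231301 in replicate 1. Genes of both adrenal compartments were present, since all 10 chromaffin markers and all 8 cortical markers reached a mean of 1 TPM (transcripts scaled to a fixed total per library), the level used here for detection. The libraries differed in genes of another organ. All 10 liver markers were higher in replicate 2, with a summed level of 5639 TPM in replicate 2 and 220 TPM in replicate 1 and a median log2 ratio of 4.71. Of the 12 kidney markers 2 reached 1 TPM, they summed to 4.74 TPM in replicate 2, against 9.31 TPM in replicate 1, and none was at 0 in either library.

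The genes of vitamin C use and Akr1a1 were abundant and even between the libraries, Slc23a2 was intermediate, and Rgn, Gulo and Slc23a1 were low and uneven. In mean TPM the order was Akr1a1, Pam, Cyb561, Slc23a2, Rgn, Gulo and Slc23a1, and it was the same in the alignment-free tables. The ranges of neighbours in this order did not overlap, except for Rgn and Gulo, whose levels could not be ordered beyond their spread. At a mean of 1 TPM or more in the gene tables, 6 of the 7 genes were detected, as were 13305 of 22028 protein-coding genes, whose median level was 11.5 TPM. In bulk RNA of a whole gland, fewer cells of a type and less RNA per cell cannot be told apart.

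**Figure D1:**
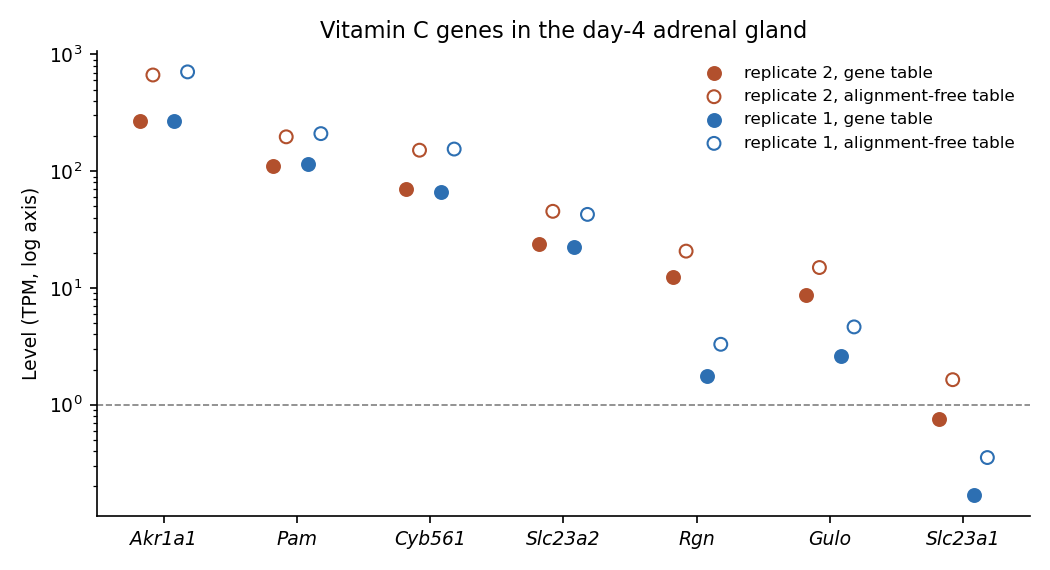
Level of each gene in TPM (log axis) in replicate 2 (orange, left) and replicate 1 (blue, right), with filled points for the gene tables and open points for the alignment-free tables; the dashed line marks 1 TPM. The points of Akr1a1, Pam, Cyb561 and Slc23a2 lie close together between libraries, and those of Rgn, Gulo and Slc23a1 lie apart in both kinds of table.

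Slc23a2 was the main ascorbate transporter gene of the family in these glands. Slc23a2 (ENSMUSG00000027340.15, chromosome 2, 132052496 to 132145108, minus strand, mm10), which encodes the transporter SVCT2 found in most tissues, had 23.87 TPM in replicate 2, against 22.3 TPM in replicate 1, or 23.1 ± 1.10 TPM (SD, n = 2). It rested on 3073 counts in replicate 2 and 3451 in replicate 1, and 73.1% of the detected protein-coding genes lay below it. The libraries were close to each other for this gene. Its main transcript Slc23a2-201, which codes for 648 residues, took 65.9% of the gene TPM in replicate 2 and 71.9% in replicate 1. Slc23a2-203, an annotated coding fragment of 379 bases, took 21.3% and 15.8%. In the alignment-free tables Slc23a2-201 took 59.2% in replicate 2 and 68.2% in replicate 1, and Slc23a2-203 took 29.7% and 26.1%. By counts in the alignment-based tables Slc23a2-201 held 95.8% in replicate 2 and 96.5% in replicate 1, so the share of the fragment in TPM came from few reads on a short length.

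Slc23a1 (ENSMUSG00000024354.13, chromosome 18, 35614604 to 35627244, minus strand), which encodes SVCT1, the transporter known from the absorbing epithelia of kidney, intestine and liver, stayed below detection in the gene tables. It had 0.75 TPM from 57 counts in replicate 2 and 0.17 TPM from 16 counts in replicate 1. Its mean was 0.995 TPM in the alignment-free tables and 1.19 TPM over protein-coding genes alone, the latter above the detection level. In CPM, the share of gene counts on the usual fixed scale, Slc23a1 had 1.88 CPM (exact 95% binomial interval 1.43 to 2.44) in replicate 2 and 0.496 CPM (0.284 to 0.806) in replicate 1. These intervals cover counting error only and do not overlap. Per length, Slc23a2 exceeded Slc23a1 by a log2 TPM ratio of 4.99 in replicate 2 and 7.04 in replicate 1, or 6.01 ± 1.45 on average (SD, n = 2). The ratio was large in both libraries and its spread came with Slc23a1, whose level differed. The 3′ end of Slc23a1 overlaps Paip2 on the opposite strand over 2584 bases, and Paip2 had 93.01 TPM in replicate 2, against 101.9 TPM in replicate 1. No source used here says whether strand entered the counting, so reads of the overlap are uncertain. Slc23a1-201, the transcript that codes for 605 residues, took 85.1% of the gene TPM in replicate 2 and 88.2% in replicate 1. Of the others, Slc23a1-203, a processed transcript, took 14.9% in replicate 2 and 0% in replicate 1, and Slc23a1-204, annotated for nonsense-mediated decay, 0% and 11.8%, each from fewer than 2 counts. In the alignment-free tables Slc23a1-201 took 73.8% in replicate 2 and 100% in replicate 1, and Slc23a1-203 took 23.3% and 0%.

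The 3 synthesis enzymes did not share a level. Akr1a1 (ENSMUSG00000028692.14, chromosome 4, 116636510 to 116651680, minus strand), an aldehyde reductase that also acts on many other aldehydes, had 269 TPM in replicate 2, against 267 TPM in replicate 1, or 268 ± 1.43 TPM (SD, n = 2), from 9975 and 11054 counts. It ranked 153 among the protein-coding genes by mean TPM, above 98.9% of those detected. The genes of the steps after it were far lower. Rgn (ENSMUSG00000023070.6, chromosome X, 20549787 to 20562089, plus strand), the gene of regucalcin, which acts as gluconolactonase, had 12.4 TPM from 560 counts in replicate 2 and 1.76 TPM from 88 counts in replicate 1. Gulo (ENSMUSG00000034450.8, chromosome 14, 65986786 to 66009207, minus strand), the gene of L-gulonolactone oxidase, had 8.65 TPM from 559 counts in replicate 2 and 2.60 TPM from 186 counts in replicate 1. Both exceeded 1 TPM in both libraries, and both were higher in replicate 2. Over the libraries Rgn averaged 7.10 ± 7.55 TPM and Gulo 5.63 ± 4.28 TPM (SD, n = 2), so the spread was about as large as the mean. Each has a single annotated transcript, Rgn-201 with 299 residues and Gulo-201 with 440.

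The transcripts of Akr1a1 were divided differently by the 2 kinds of transcript table. Akr1a1-201 took 89.6% of the gene TPM in replicate 2 and 91.0% in replicate 1 in the alignment-based tables, but 60.2% and 60.4% in the alignment-free tables. The difference went to Akr1a1-202, a processed transcript of 412 bases, with 9.03% in replicate 2 and 7.75% in replicate 1 against 38.8% and 36.0% without alignment. By counts, Akr1a1-201 kept 95.3% in replicate 2 and 96.2% in replicate 1 in the alignment-based tables, and 91.2% and 90.8% in the alignment-free tables. The libraries were alike within each kind of table, and the tables differed by far more than the libraries.

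The vesicle genes were high and nearly equal in both libraries. Cyb561 (ENSMUSG00000019590.16, chromosome 11, 105933702 to 105953336, minus strand), which encodes the cytochrome of chromaffin granules that carries electrons from ascorbate across the membrane, had 69.8 TPM in replicate 2, against 66.6 TPM in replicate 1, or 68.2 ± 2.28 TPM (SD, n = 2), from 4511 and 4814 counts. It stood above 93.4% of detected protein-coding genes. Pam (ENSMUSG00000026335.16, chromosome 1, 97795114 to 98095646, minus strand) encodes the monooxygenase that amidates the ends of peptide hormones, with copper and ascorbate. Pam had 109.9 TPM in replicate 2, against 114.6 TPM in replicate 1, or 112 ± 3.31 TPM (SD, n = 2), from 9556 and 11264 counts, and stood above 96.4% of detected protein-coding genes.

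Dbh, which makes noradrenaline from dopamine and is the other copper enzyme served by ascorbate in the granules, was used as a yardstick within each library. Dbh had 194.6 TPM in replicate 2, against 198.9 TPM in replicate 1. The log2 TPM ratio of Pam over Dbh was -0.83 in replicate 2 and -0.80 in replicate 1, on average -0.81 ± 0.02 (SD, n = 2). For Cyb561 over Dbh the log2 TPM ratio was -1.48 in replicate 2 and -1.58 in replicate 1, on average -1.53 ± 0.07 (SD, n = 2). These ratios varied little between the libraries, unlike that between the transporters.

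Cyb561-201 carried most of the Cyb561 message, with 74.3% of the gene TPM in replicate 2 and 75.3% in replicate 1 in the alignment-based tables and 55.8% and 57.1% in the alignment-free tables. Cyb561-204, an annotated coding fragment of 967 bases, took 19.4% in replicate 2 and 18.7% in replicate 1, and 20.4% and 19.9% without alignment. By counts in the alignment-based tables Cyb561-204 held 7.79% in replicate 2 and 7.44% in replicate 1. Cyb561-203, a processed transcript of 505 bases, took 5.01% in replicate 2 and 4.18% in replicate 1, and 13.2% and 16.3% without alignment. As for Akr1a1, the short non-coding form had the larger share where no alignment was made.

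Pam has 15 annotated transcripts, and its full-length forms differ by a cassette exon, an exon that is either kept or skipped. The exon (chromosome 1, 97864203 to 97864520, mm10, minus strand) is exon 15 of 26 in Pam-201 and has 318 bases, or 106 codons with no base left over, so the reading frame goes on with or without it. It lies between the coding parts of the monooxygenase and the lyase of the bifunctional enzyme. Pam-201, with 979 residues, and Pam-202, with 978, contain it, and Pam-210, with 873, lacks it. The junctions that tell the forms apart are shown from the GENCODE M21 transcripts with 15 bases on each side of the junction, 5′ to 3′ on the strand of the gene, and capitals mark bases of the cassette exon.
Pam exon 14 to 15, included: aagccttcgagcaggGTGATTTCTATTCAC
Pam exon 15 to 16, included: CAGAACTCGCAGGAGatttccatgtggaag
Pam exon 14 to 16, skipped: aagccttcgagcaggatttccatgtggaag

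Exon inclusion was divided between the forms, and the balance depended on the kind of table. Pam-210, the form without the exon, had 45.8% of the gene TPM in replicate 2 and 45.3% in replicate 1, and 34.2% and 33.8% in the alignment-free tables. Pam-201 had 18.3% in replicate 2 and 22.6% in replicate 1, and 26.9% and 31.7% in the alignment-free tables. Pam-212, a coding fragment of 657 bases, took 14.8% in replicate 2 and 15.7% in replicate 1, and 13.2% and 13.6% without alignment. By counts in the alignment-based tables Pam-212 held only 2.83% in replicate 2 and 2.94% in replicate 1. Of the 3 full-length forms together, the share without the exon was 62.0% in replicate 2 and 59.8% in replicate 1 in the alignment-based tables, on average 60.9% ± 1.56 (SD, n = 2). In the alignment-free tables it was 48.6% in replicate 2 and 45.7% in replicate 1, on average 47.2% ± 2.11 (SD, n = 2). Both kinds of table thus gave forms with and without the exon in each library, with a difference between tables larger than the spread between libraries. Pam-210 also lacks the first exon of Pam-201 in the annotation, and the tables hold no counts of junction reads, so these shares are estimates over whole transcripts.

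Pam-202 uses another acceptor at exon 24, named here after its values were seen because it contains the cassette exon. The acceptor lies 3 bases downstream (chromosome 1, 97826038 to 97826040), and capitals mark the bases that only the long form keeps, shown because they are the coding difference between Pam-201 and Pam-202.
Pam exon 23 to 24, long acceptor: tcccggaaatcaaagAAGccgaggcagttg
Pam exon 23 to 24, short acceptor: tcccggaaatcaaagccgaggcagttg
Pam-202 made up 34.8% of the exon-containing full-length forms in replicate 2 and 26.1% in replicate 1, and 25.3% and 21.2% in the alignment-free tables. Among these exon-containing forms, the one with the long acceptor was the larger in each library and table. Pam-210, which lacks the cassette exon, also has the long acceptor and is not part of these shares. Of the whole gene TPM, Pam-202 took 9.78% in replicate 2 and 7.95% in replicate 1, and 9.13% and 8.54% in the alignment-free tables.

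**Figure D2:**
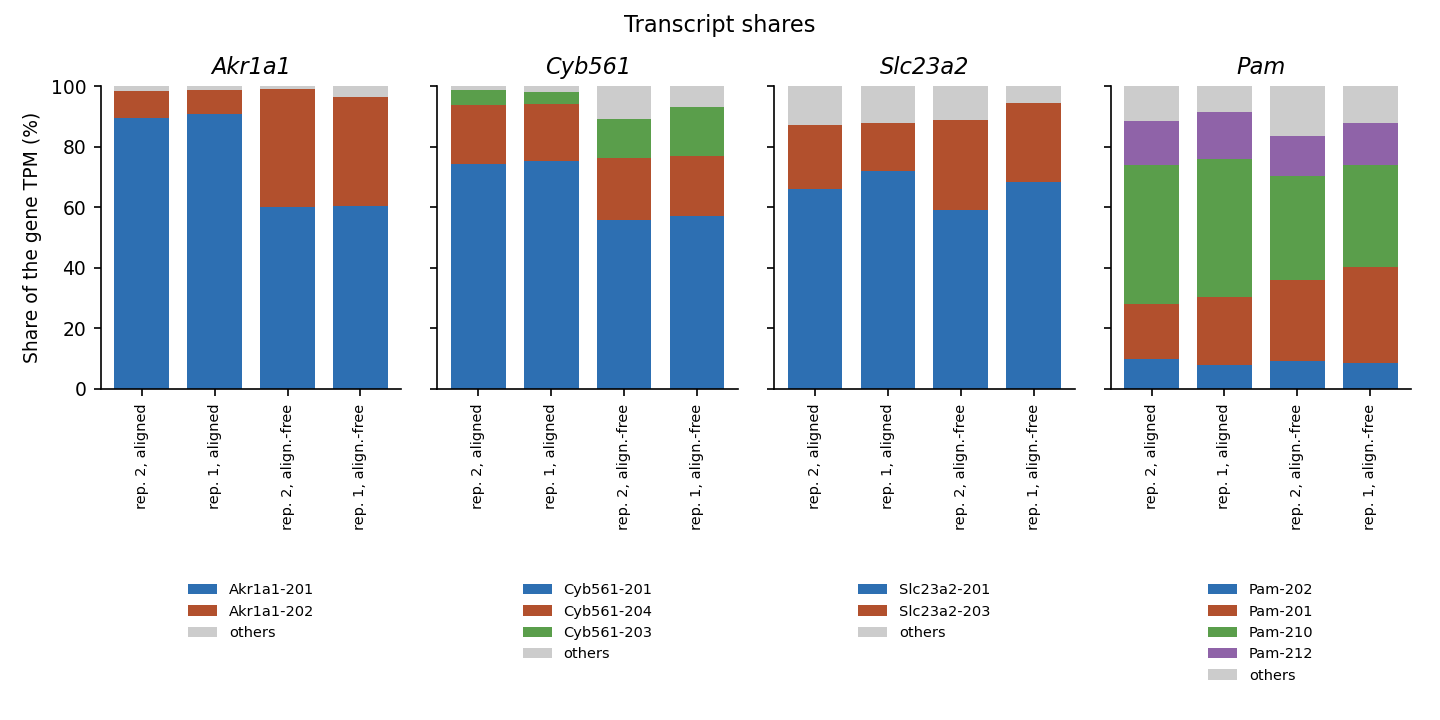
Share of each gene's TPM (%) taken by its transcripts in replicate 2 and replicate 1, first in the alignment-based and then in the alignment-free tables; grey stands for all other annotated transcripts. Between libraries of the same kind of table the bars differ most for Slc23a2-201 (59.2% and 68.2% without alignment), and Akr1a1-202 and Cyb561-203 have a larger share, and Pam-210 a smaller one, in the alignment-free tables.

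Rgn, Gulo and Slc23a1 were higher in replicate 2, and the other 4 genes were within 2-fold. Each gene's rounded counts were compared between the libraries with an exact two-sided binomial test against TMM library sizes, with Benjamini-Hochberg adjustment over 18160 genes, and a gene was called at an adjusted p under 0.05 and over 2-fold. This compares the libraries and says nothing of conditions. In this comparison 3 of the 7 genes were called higher in replicate 2, where 3.38% of all tested genes were, and 0 were called lower, where 0.606% were. At any fold, 6 of the 7 passed the adjusted p, where 33.5% of all tested genes did. That count was 5 with library sizes from total gene counts or spike-ins, under which Slc23a2 did not pass, and 7 with alignment-free counts, under which Cyb561 passed. Passing at any fold depends on read depth, since the test covers counting error only. The 33.5% of all tested genes was not matched for depth. All 7 had passed the filter on low counts. Their median log2 ratio was -0.03, beside 0.00018 for all tested genes, of which 95.7% lay within 2-fold.

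Rgn had a log2 ratio of 2.72 for replicate 2 over replicate 1 (95% counting interval 2.40 to 3.07), a 6.60-fold difference, with an adjusted p of 2.81e-87 in the exact binomial test. Slc23a1 had a log2 ratio of 1.86 (1.07 to 2.79), or 3.63-fold, with an adjusted p of 5.75e-06 in the exact test and a wide interval from its few counts. Gulo had a log2 ratio of 1.64 (1.40 to 1.89), or 3.13-fold, with an adjusted p of 7.59e-46 in the exact test. Ratios at least as high were found in 1.08% of all tested genes for Rgn, 1.50% for Slc23a1 and 1.68% for Gulo.

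The 4 abundant genes had small ratios. The log2 ratio was -0.18 for Pam (-0.22 to -0.14; adjusted p 1.63e-17 in the exact binomial test), -0.11 for Slc23a2 (-0.18 to -0.04; adjusted p 0.0103), -0.09 for Akr1a1 (-0.13 to -0.05; adjusted p 5.88e-05) and -0.03 for Cyb561 (-0.09 to 0.02; adjusted p 0.412). Pam, Slc23a2 and Akr1a1 passed the adjusted p and Cyb561 did not, and the spread between animals does not enter this counting test. For Slc23a2, Akr1a1 and Cyb561 the sign depended on the scale, since gene-table TPM was higher in replicate 2 while TMM-scaled counts were lower. Protein-coding genes took 39.2% of all TPM in replicate 2 and 36.6% in replicate 1.

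**Figure D3:**
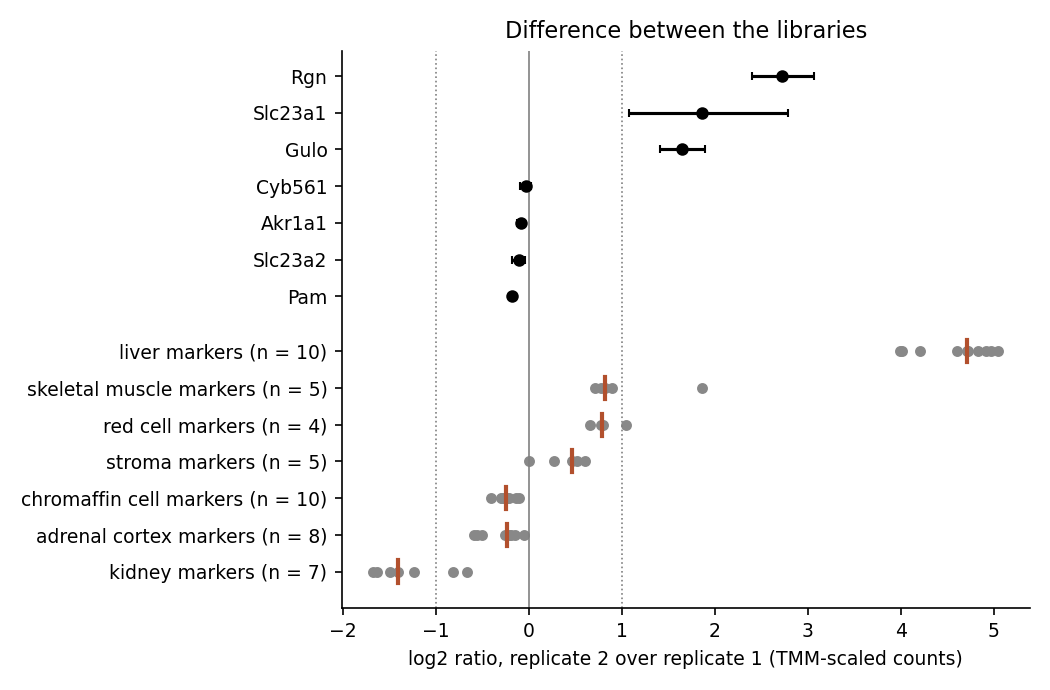
Log2 ratio of replicate 2 over replicate 1 from TMM-scaled counts for the 7 genes (black, with 95% counting intervals) and for marker genes kept by the filter (grey points, with the median of each list as an orange bar); dotted lines mark 2-fold. Rgn, Slc23a1 and Gulo lie above 2-fold but below all liver markers, whose median is 4.71, and the other 4 genes lie near 0.

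Liver markers differed between the libraries in the same direction as Rgn, Gulo and Slc23a1, and by more. Alb, the gene of serum albumin, had 2319 TPM in replicate 2, against 76.3 TPM in replicate 1, and the 10 liver markers had log2 ratios between 3.99 and 5.05, all called higher in replicate 2. The ratios of Rgn, Gulo and Slc23a1 were positive but smaller than that of every liver marker. Set against Alb, Gulo had 0.373 TPM per 100 TPM of Alb in replicate 2 and 3.41 in replicate 1. Rgn had 0.536 TPM per 100 TPM of Alb in replicate 2 and 2.31 in replicate 1. Slc23a1 had 0.0323 TPM per 100 TPM of Alb in replicate 2 and 0.223 in replicate 1. Each of the 3 was thus lower relative to Alb in the library in which it was higher outright. This restates their ratios, which were positive and smaller than that of Alb. Per 100 TPM of the kidney marker Slc34a1, Rgn had 1003 TPM in replicate 2 and 50 in replicate 1. Gulo had 698 and 73.9, and Slc23a1 had 60.5 and 4.83. That too restates the ratios, since Slc34a1 was lower in replicate 2.

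Markers of kidney, which also expresses Slc23a1 and Rgn, mostly went the other way. Of the 12 kidney markers 7 passed the filter, 5 of these were called lower in replicate 2, and the median log2 ratio was -1.41. Slc34a1, the phosphate carrier of the proximal tubule, had 1.24 TPM in replicate 2, against 3.52 TPM in replicate 1. Chromaffin markers had a median log2 ratio of -0.25 and summed levels of 2191 TPM in replicate 2 and 2426 TPM in replicate 1, and none was called. Cortical markers had a median of -0.24 and summed levels of 6813 TPM in replicate 2 and 8785 TPM in replicate 1, and none was called. Over all tested genes 3.38% were called higher in replicate 2 and 0.606% lower. In TMM-scaled counts, the small negative ratios of Pam, Slc23a2, Akr1a1 and Cyb561 have the sign of the chromaffin and cortical medians. That sign is common, with a median log2 ratio of 0.00018 over all tested genes. Ratios at least as far from 0 were found in 87.9% of tested genes for Cyb561, 69.8% for Akr1a1, 64.4% for Slc23a2 and 47.4% for Pam. The counting interval of Cyb561 ran from -0.09 to 0.02. In gene-table TPM, Slc23a2, Akr1a1 and Cyb561 were higher in replicate 2, unlike the summed levels of the chromaffin and cortical lists. Smaller positive medians were found for skeletal muscle (0.81), red cells (0.79), stroma (0.47), glia (0.30), adipocytes (0.21), endothelium (0.16) and macrophages (0.05). Among these lists 1 skeletal muscle marker and 1 red cell marker were called higher in replicate 2, with log2 ratios of 1.87 and 1.04. No marker of the other lists in this group was called. The part of liver, kidney or other tissue in the values of Rgn, Gulo and Slc23a1 was not tested.

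Other genes around vitamin C were followed in 9 lists with 58 genes. Of these 46 reached 1 TPM, 49 passed the filter, and the median log2 ratio was -0.10. Between the libraries 1 was called higher in replicate 2, where 3.38% of all tested genes were, and 0 lower, where 0.606% were. The called gene was Slc2a2, the glucose transporter typical of liver and pancreatic beta cells, with 7.90 TPM in replicate 2 and 0.61 TPM in replicate 1. Its log2 ratio was 3.64, with an adjusted p of 7.90e-142 in the exact binomial test. It lay just under the range of the liver markers, and the part of liver in it was not tested.

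Supply and transport genes were mostly modest in level. All 5 genes that supply or divert ascorbate precursors were detected, led by Akr1b3, an aldose reductase, at 40.6 ± 4.29 TPM, Ugp2, which makes UDP-glucose, at 27.1 ± 3.66 TPM, and Ugdh, which oxidises it to UDP-glucuronate, at 22.9 ± 3.09 TPM (SD, n = 2). Of 6 further Slc23 and cytochrome b561 family genes 4 were detected, led by Cyb561d2 at 7.63 ± 1.15 TPM, Cyb561a3 at 6.28 ± 1.53 TPM and Frrs1 at 5.44 ± 0.806 TPM. The other Slc23 genes, Slc23a3 and Slc23a4, named here after their values were seen, stood at 0.190 and 0.225 TPM, far below Slc23a2. All 5 glucose transporter genes for dehydroascorbate, the oxidised form of the vitamin, were detected on average, led by Slc2a4 at 8.59 ± 0.311 TPM, Slc2a8 at 7.43 ± 0.636 TPM and Slc2a3 at 5.91 ± 0.566 TPM.

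Genes that return oxidised ascorbate to its reduced form were higher. Of 8 recycling genes 7 were detected, led by Cyb5b, the cytochrome b5 of the outer mitochondrial membrane, at 118 ± 14.7 TPM, the thioredoxin gene Txn1 at 91.8 ± 3.63 TPM and Cyb5r3, a cytochrome b5 reductase, at 76.6 ± 3.17 TPM (SD, n = 2). None of the 8 was called in either direction, where 3.38% of all tested genes were called higher in replicate 2 and 0.606% lower.

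Genes of enzymes that need ascorbate outside the vesicles, or of their subunits, were mostly detected. All 10 collagen hydroxylase genes were detected. The highest was P4hb, the shared subunit of the prolyl hydroxylases and also a disulfide isomerase, at 184 ± 10.1 TPM (SD, n = 2). P4hb is not the subunit that uses ascorbate. The catalytic subunit genes P4ha1, P4ha2 and P4ha3, named here after their values were seen, had means of 8.93, 8.16 and 1.49 TPM. Next after P4hb came the lysyl hydroxylases Plod2 at 61.8 ± 3.73 TPM and Plod3 at 22.2 ± 1.12 TPM. All 7 oxygen-sensing and DNA-demethylating dioxygenase genes were detected, led by Egln2 at 36.9 ± 3.35 TPM, Tet3 at 25.7 ± 3.43 TPM and Tet2 at 20.1 ± 3.81 TPM. Of the carnitine synthesis enzymes, Tmlhe, which hydroxylates trimethyllysine in the opening step, had 7.16 ± 0.0354 TPM. Bbox1, which makes the last step and is typical of liver and kidney, had 0.71 TPM from 65 counts in replicate 2 and 0.09 TPM from 4 counts in replicate 1 and did not pass the filter.

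The partners and substrates of the vesicle enzymes included abundant genes. All 4 copper partner genes were detected, led by Dbh at 197 ± 3.01 TPM, the copper chaperone gene Atox1 at 100.5 ± 8.24 TPM and the copper importer gene Slc31a1 at 27.8 ± 0.679 TPM (SD, n = 2). Of the 11 precursor genes of amidated peptides on the list chosen here, 3 reached 1 TPM. They were Npy, for neuropeptide Y, at 301 ± 45.3 TPM, Adm, for adrenomedullin, at 10.1 ± 0.247 TPM, and Gal, for galanin, at 3.19 ± 0.0566 TPM. Precursors outside the list were not looked at under this heading. The 4 copper partners and 4 of the 11 precursors passed the filter on low counts. None of these 8 was called between the libraries, where 3.38% of all tested genes were called higher in replicate 2 and 0.606% lower. The other 7 precursors were not tested.

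**Figure D4:**
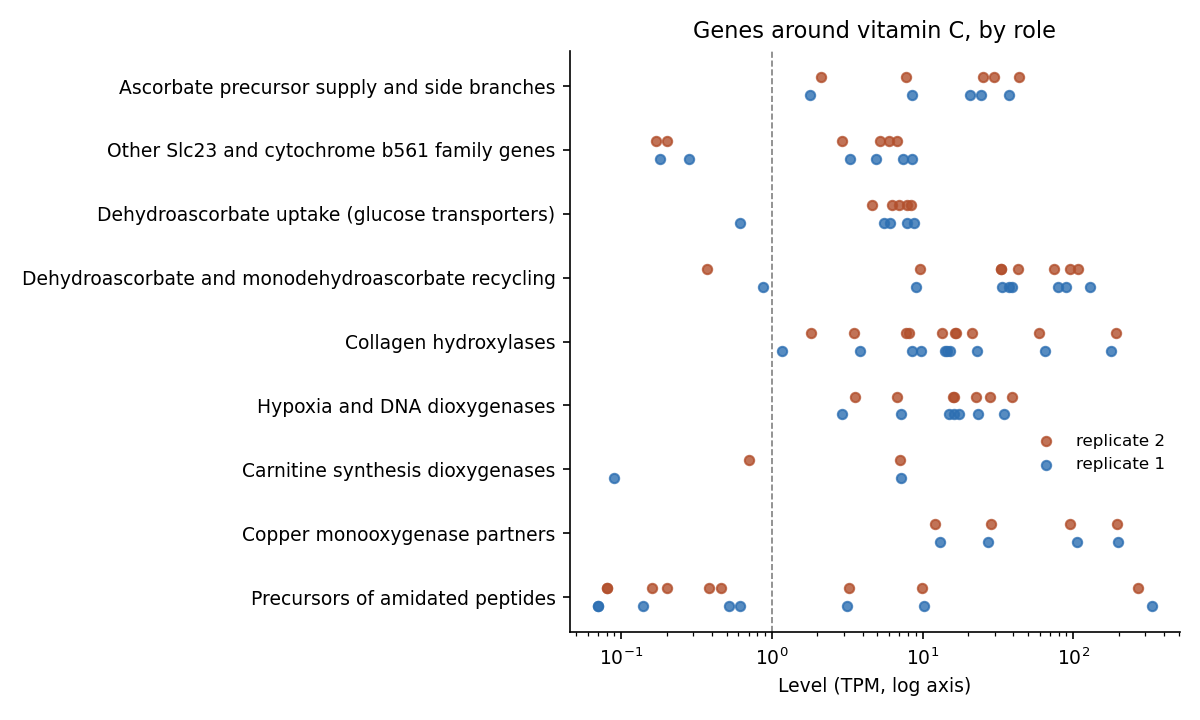
Level in TPM (log axis) of the genes of 9 lists around vitamin C, with replicate 2 (orange) above replicate 1 (blue) in each list and a dashed line at 1 TPM; values of 0 are not drawn. Most genes lie at like levels in both libraries, and Slc2a2, among the glucose transporters, lies at 7.90 TPM in replicate 2 and 0.61 TPM in replicate 1.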

How the data were processed

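For each library the authors deposited a gene table and a transcript table made from alignments, and a transcript table made without alignment, all against mm10 and GENCODE M21 per the labels and the files' own descriptions. No source used here names the programs, their settings or any use of strand. Expected counts, as the file headers call them, were deposited as estimates that divide reads among transcripts, and were rounded to whole numbers for count methods. The authors' TPM divide by effective length and rescale to a fixed sum, so short RNAs weigh heavily. Alignment-free values were summed per gene. Rows without a gene ID (26248, with 2 counts in replicate 2 and 3 in replicate 1) and spike-ins (1.06% of counts in each library) were left out.

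Levels are means ± SD over 2 libraries. TMM sizes and filterByExpr came from edgeR 4.0.16 (R 4.3.3). DESeq2 1.42.0 gave alternative size factors. Log2 ratios use a prior count of 0.5, and intervals are exact at 95% and cover counting error only. The comparison was tested on simulated counts that varied by counting error alone, so that test does not cover further spread between libraries. Sequences and coordinates came from GENCODE M21. The members and gene lists were chosen with earlier results of these data known. Named were all 7 genes, their transcripts with 10% or more of the gene TPM in any table, the 3 highest genes and any called gene of each pathway list, and up to 4 highest genes of each marker list. Alternatives changed the quantification, the TPM denominator, the library sizes, the filter, the detection level, the prior count and the libraries used.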

Additional observations from a re-analysis of the deposited data

How the results depend on the processing

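Leaving out a library gives the value of the other one, as printed above, and with 2 libraries it always lies within 1 SD of the mean, so those values say nothing of stability. Of the 83 other alternative values 63 kept their direction, their side of the threshold or their size within the spread between libraries. All 42 alternatives for the 7 ratios were among them, and all 42 used counts. Gene-table TPM was not one of these alternatives, and it had the opposite sign for Slc23a2, Akr1a1 and Cyb561. The 3 genes called higher in replicate 2 were called under every scaling, filter, prior count and quantification tried. At any fold, the adjusted p of the exact binomial test for Slc23a2 ranged between 0.000299 and 0.0821 and that for Cyb561 between 0.0372 and 0.965. In the alignment-free tables mean levels were 0.995 TPM for Slc23a1, 44.0 TPM for Slc23a2, 9.80 TPM for Gulo, 11.98 TPM for Rgn, 688 TPM for Akr1a1, 153.0 TPM for Cyb561 and 203 TPM for Pam; for Gulo and Rgn the move was within 1 SD only because that SD is wide. With TPM rescaled over protein-coding genes alone they were 1.19 TPM for Slc23a1, 60.9 TPM for Slc23a2, 14.6 TPM for Gulo, 18.3 TPM for Rgn, 708 TPM for Akr1a1, 179.9 TPM for Cyb561 and 297 TPM for Pam. On that scale Slc23a1 rose above the detection level. The alignment-free tables gave mean shares of 63.7% for Slc23a2-201, 60.3% for Akr1a1-201, 56.5% for Cyb561-201 and 34.0% for Pam-210, and 47.2% of full-length Pam without the cassette exon. The log2 ratio of Pam over Dbh was -0.53 by expected counts, and that of Cyb561 over Dbh -1.22 in the alignment-free tables and -1.69 by counts. Apart from the change of unit or table, the cause was not tested. A ratio between the libraries cannot be computed with either left out. No paired analysis was possible because there is 1 group. Depth limits Slc23a1 most, and the 2 libraries cannot show how far animals differ.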
